A study of Arabidopsis thaliana with 8 samples.

Results

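The 9 genes described here are 5 plant defensins, PDF1.1 (AT1G75830), PDF1.2A (AT5G44420), PDF1.2B (AT2G26020), PDF1.2C (AT5G44430) and PDF1.3 (AT2G26010), the transcription factors ORA59 (AT1G06160) and ERF1 (AT3G23240), the hevein-like gene HEL (AT3G04720) and the basic chitinase gene CHI-B (AT3G12500). They were chosen by locus identifier, with earlier results of these data known, and are 9 of the 18333 genes listed in the deposited tables. Their transcripts were measured by RNA sequencing of whole rosettes from untreated Arabidopsis thaliana (Col-0) at 28 days of age, with 4 genotypes and 2 libraries of each. Wild type (WT) carried no transgene. The PBL19C3A line was a pbl19 mutant expressing PBL19C3A-GFP-HA from the PBL19 promoter, with constitutive immunity given as its phenotype. The sid2 line carried the same construct in a sid2 pbl19 background, also with constitutive immunity, and the eds1 line carried it in an eds1 pbl19 background, with a phenotype given as like WT. PBL19 is a receptor-like cytoplasmic kinase, SID2 is the isochorismate synthase ICS1, the main source of salicylic acid during immune responses, and EDS1 acts in immune signalling downstream of intracellular receptors. All 3 lines therefore share the pbl19 mutation and a construct that WT lacks, and no pbl19, sid2 or eds1 plants without the construct were among the samples. The labels do not say whether the insertion is the same in the 3 lines.

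Plants defend themselves against necrotrophic fungi largely through jasmonate and ethylene, which act together on the AP2/ERF factors ORA59 and ERF1. These factors bind the GCC box, with the letters GCCGCC, in promoters of defence genes, and PDF1.2A is the usual marker of this branch. A second jasmonate branch, led by MYC2, controls wound genes such as VSP2 and opposes the first. Salicylic acid, acting through NPR1, TGA factors and the glutaredoxin GRX480, is known to repress PDF1.2 transcripts. Defensins are small, cysteine-rich secreted peptides that act on fungal membranes, and chitinases and hevein-like proteins act on chitin of fungal walls.

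The 5 defensin genes are close copies, which bears on how reads could be assigned to them, so their coding sequences are shown (RefSeq, TAIR10.1, 5′ to 3′). Capitals mark bases that differ from PDF1.2A.
PDF1.2A: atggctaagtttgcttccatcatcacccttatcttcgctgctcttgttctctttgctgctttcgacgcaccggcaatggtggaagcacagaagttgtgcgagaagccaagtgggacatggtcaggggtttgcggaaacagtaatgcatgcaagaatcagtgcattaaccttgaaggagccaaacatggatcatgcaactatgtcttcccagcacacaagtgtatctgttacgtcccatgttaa
PDF1.1: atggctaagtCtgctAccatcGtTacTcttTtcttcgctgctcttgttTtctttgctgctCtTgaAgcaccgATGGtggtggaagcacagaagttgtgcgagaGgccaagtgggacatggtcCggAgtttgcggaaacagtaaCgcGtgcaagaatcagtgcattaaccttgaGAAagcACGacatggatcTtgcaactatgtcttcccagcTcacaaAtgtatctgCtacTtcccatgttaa
PDF1.2B: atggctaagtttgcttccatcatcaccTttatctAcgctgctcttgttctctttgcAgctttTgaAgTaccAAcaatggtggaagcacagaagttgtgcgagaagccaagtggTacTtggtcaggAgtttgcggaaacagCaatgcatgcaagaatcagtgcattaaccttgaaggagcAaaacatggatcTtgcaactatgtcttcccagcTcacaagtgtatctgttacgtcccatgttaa
PDF1.2C: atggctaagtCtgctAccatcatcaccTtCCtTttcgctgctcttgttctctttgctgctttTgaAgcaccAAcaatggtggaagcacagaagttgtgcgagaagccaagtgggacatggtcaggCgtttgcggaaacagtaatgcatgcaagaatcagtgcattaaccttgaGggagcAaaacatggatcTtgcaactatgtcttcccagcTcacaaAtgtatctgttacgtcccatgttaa
PDF1.3: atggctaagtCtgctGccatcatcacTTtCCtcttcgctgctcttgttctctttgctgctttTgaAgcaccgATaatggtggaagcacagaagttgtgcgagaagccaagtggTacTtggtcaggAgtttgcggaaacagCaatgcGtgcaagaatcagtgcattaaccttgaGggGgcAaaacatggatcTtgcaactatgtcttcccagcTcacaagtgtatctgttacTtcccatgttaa
Each coding sequence is 243 bases long in 2 exons. PDF1.1 differs from PDF1.2A at 30 bases, PDF1.3 at 21, PDF1.2C at 16 and PDF1.2B at 15. Between any pair of transcripts the longest identical run is 27 to 72 bases, with the longest between PDF1.2B and PDF1.3. PDF1.2A and PDF1.2C are neighbours on the minus strand of chromosome 5, 1211 bases apart, and PDF1.3 and PDF1.2B are neighbours on the plus strand of chromosome 2, 1121 bases apart, with 0 protein-coding genes between the members of either pair. Neighbouring copies are not the most alike: the highest identity, 94.7%, is between PDF1.2C and PDF1.3. The sources used here do not give how reads matching more than 1 copy were counted, so the split among copies is uncertain, and the sum of the copies is given as well.

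The 250 bases before the annotated start of PDF1.2A (chr5:17907639-17907888, minus strand) and PDF1.2B (chr2:11088873-11089122, plus strand) are shown because both hold a GCC box, in capitals, within a shared stretch.
PDF1.2A: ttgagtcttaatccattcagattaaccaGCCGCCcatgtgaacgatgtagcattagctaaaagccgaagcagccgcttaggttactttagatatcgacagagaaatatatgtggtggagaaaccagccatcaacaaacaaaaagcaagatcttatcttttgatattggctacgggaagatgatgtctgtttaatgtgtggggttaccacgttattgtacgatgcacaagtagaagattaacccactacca
PDF1.2B: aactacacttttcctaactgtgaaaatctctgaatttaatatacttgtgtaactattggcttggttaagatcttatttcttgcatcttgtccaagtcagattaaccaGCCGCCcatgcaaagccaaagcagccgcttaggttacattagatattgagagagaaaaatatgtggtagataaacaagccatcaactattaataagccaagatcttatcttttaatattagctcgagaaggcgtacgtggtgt
The shared stretch is tcagattaaccaGCCGCCcatg, 22 bases that begin 234 bases before the start of PDF1.2A and 155 bases before that of PDF1.2B. In the 500 bases before the start, searched on both strands, the GCC box was found in 4 of the 9 genes, against 4.1% of 27443 protein-coding genes. It lies 222 bases before PDF1.2A, 143 before PDF1.2B, 230 before ORA59 and 388 before HEL. The G-box CACGTG, a motif bound by MYC2 among others, was found in ORA59 alone of the 9 genes, 194 bases before the start, and in 9.3% of all genes. The letters TGACG, the core of the element bound by TGA factors, were found in PDF1.2A, ORA59, ERF1 and CHI-B, and in 32.0% of all genes. No matches of these 3 motifs overlap one another in the 9 windows, and none of the 3 was found in the windows of PDF1.1, PDF1.2C and PDF1.3.

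**Figure D1:**
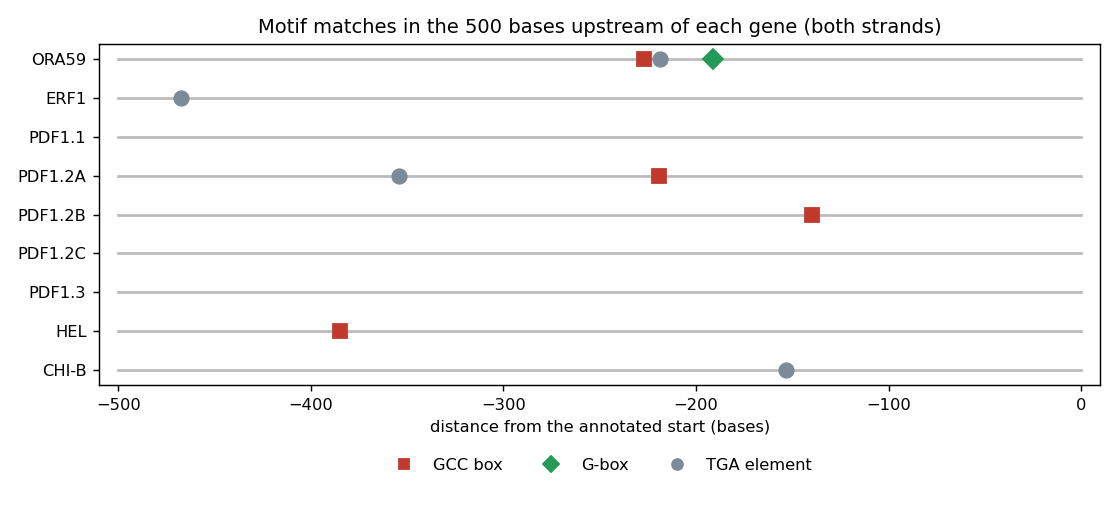
Matches of the GCC box, the G-box and the TGA element in the 500 bases before the start of each of the 9 genes, by distance from the annotated start in bases (x axis), 1 row per gene. The GCC box is marked in PDF1.2A, PDF1.2B, ORA59 and HEL, and the rows of PDF1.1, PDF1.2C and PDF1.3 are empty.

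Total counts per library were 37373977 to 51202472, with the lowest in library 2 of the PBL19C3A line. Levels are the authors' FPKM (fragments per kilobase of transcript, scaled to library size), so they can be compared between genes, and n is 2 libraries per genotype throughout. The design text of the series speaks of 1 biological replicate, so p-values measure only the spread between these libraries, which may be technical. Differences are log2 fold changes ± standard error from edgeR on counts, adjusted over all genes of a comparison, and passed the test at an adjusted p under 0.05. Each deposited count table sets WT beside 1 line and lists only genes at 1 CPM (counts scaled by library size) or more in 2 or more of its 4 libraries. ORA59, HEL and CHI-B were listed for all 3 lines. PDF1.2A, PDF1.3 and ERF1 were listed for the PBL19C3A and sid2 lines, and PDF1.1, PDF1.2B and PDF1.2C for the sid2 line. Outside these, the genes were low in that line and have no value there. The 5 defensins and ERF1 were under 1 CPM in both WT libraries, so they could be listed only where a line was higher, and their differences from WT follow in part from that limit. The rosette marker RBCS1A stood at 7245 to 10428 FPKM across libraries, while 0 of 4 root markers and 0 of 6 flower and seed markers were listed. In bulk rosettes, a change in the share of cells that express a gene and a change in RNA per cell cannot be told apart.

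ORA59, the factor that integrates jasmonate and ethylene signals on the defensin promoters, was lowest in WT, at 1.31 and 1.73 FPKM in libraries 1 and 2. It was 2.69 and 3.199 FPKM in the eds1 line, 4.47 and 4.06 in the PBL19C3A line and 17.3 and 11.5 in the sid2 line. The 4 genotypes did not overlap in their libraries. With 2 libraries each, such separation is a description, here and for the genes below, and its share over all genes was not computed. Against WT, ORA59 rose by 1.44 ± 0.27 in the PBL19C3A line (adjusted p = 0.00601) and by 3.18 ± 0.28 in the sid2 line (adjusted p = 0.00066). The sid2 line exceeded the PBL19C3A line by 1.74 ± 0.26 (adjusted p = 0.0227). The eds1 line and WT, neighbours in this order, differed by 0.91 ± 0.27 without passing (unadjusted p = 0.0109, adjusted p = 1.0), and the eds1 and PBL19C3A lines differed by -0.53 ± 0.26 without passing (adjusted p = 0.167).

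ERF1, the other activator and a target of the ethylene factor EIN3, had the opposite order between the lines with constitutive immunity. It was low in WT, at 0.182 and 0.0864 FPKM. The PBL19C3A libraries gave 3.48 and 2.99 FPKM and the sid2 libraries 1.34 and 2.11, again without overlap. It rose by 4.34 ± 0.45 in the PBL19C3A line (adjusted p = 0.000924) and by 3.44 ± 0.45 in the sid2 line (adjusted p = 0.00468). The difference between those lines, -0.89 ± 0.36, did not pass (adjusted p = 0.257). Per length, ORA59 was thus above ERF1 in every library that has values for both.

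**Figure D2:**
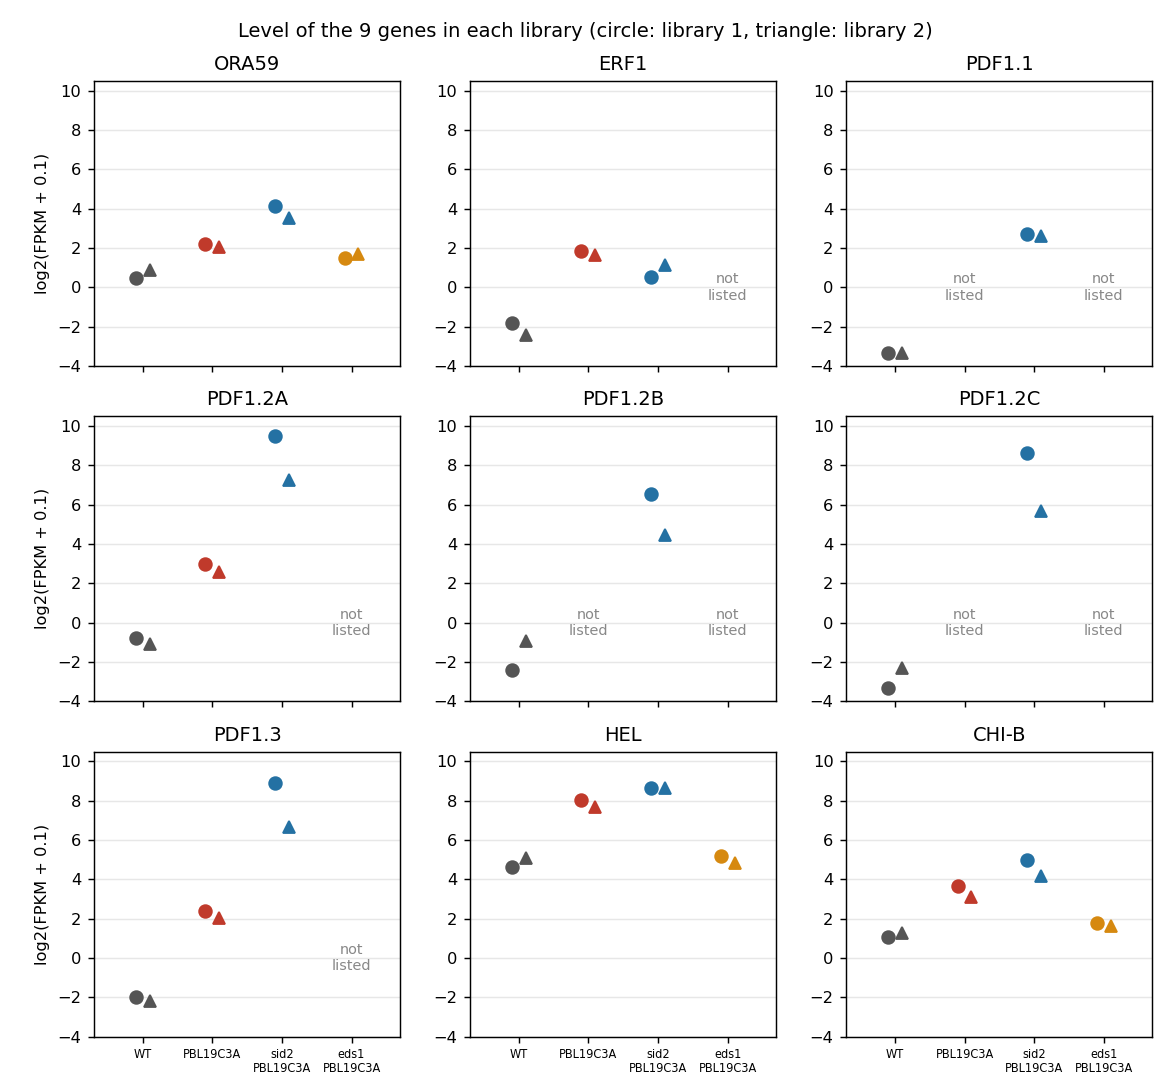
FPKM of each of the 9 genes in every library (y axis, log2 of FPKM + 0.1; 1 panel per gene), by genotype, with a circle for library 1 and a triangle for library 2. The sid2 libraries stand highest for ORA59, CHI-B, HEL and all 5 defensins, and the PBL19C3A libraries highest for ERF1. Genotypes without points have no listed value.

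PDF1.2A, the marker defensin, had 11 and 8 reads in the WT libraries, or 0.486 and 0.364 FPKM. In the PBL19C3A line it had 166 and 99 reads, or 7.76 and 5.78 FPKM. With sid2 it had 17033 and 3360 reads, or 726 and 155 FPKM. The sid2 libraries were far above all others, and they also stood far from each other. PDF1.2A rose by 3.84 ± 1.02 in the PBL19C3A line against WT (adjusted p = 0.0272) and by 9.86 ± 1.00 in the sid2 line (adjusted p = 0.00186). Between the lines it was 6.02 ± 0.77 higher in the sid2 line (adjusted p = 0.0203).

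PDF1.3 followed the same order. It stood at 0.154 and 0.123 FPKM in WT, at 5.19 and 4.06 in the PBL19C3A line and at 474 and 101 in the sid2 line. It rose by 4.88 ± 1.23 in the PBL19C3A line (adjusted p = 0.0232) and by 10.83 ± 1.096 in the sid2 line (adjusted p = 0.00186). The sid2 line exceeded the PBL19C3A line by 5.95 ± 0.77 (adjusted p = 0.0205). The ratio of PDF1.3 to PDF1.2A in FPKM was nearly constant, at 0.653 and 0.650 in the sid2 libraries and 0.669 and 0.702 in the PBL19C3A libraries.

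PDF1.2C, the neighbour of PDF1.2A, had 0 and 3 reads in WT against 9502 and 1140 in the sid2 line, where it reached 392 and 50.7 FPKM. The ratio of its summed counts, each scaled to its library totals, was 3326. The 95% exact binomial interval of this ratio, 1138 to 16128, covers counting error only and not the difference between the libraries. In the edgeR fit PDF1.2C rose by 11.46 ± 1.65 (adjusted p = 0.00984). PDF1.2B had 2 and 6 reads in WT and 1379 and 300 in the sid2 line, or 0.0906 and 0.430 against 94.0 and 22.1 FPKM, a rise of 7.46 ± 1.02 (adjusted p = 0.00821). PDF1.1 had 0 reads in both WT libraries and 147 and 127 reads in the sid2 line, at 6.39 and 5.97 FPKM. Set against a floor of 3 counts over both WT libraries, it was at least 85.6-fold higher in the sid2 line. The edgeR fit, whose size depends on the prior count here, gave an adjusted p of 0.00341. Within the sid2 line, PDF1.2A stood highest per length, followed by PDF1.3, PDF1.2C, PDF1.2B and PDF1.1 in library 1, and by the same order in library 2.

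Summed over copies, the defensin reads gave the same picture, and a sum does not depend on the split among the copies it holds. The sum for the PBL19C3A line holds PDF1.2A and PDF1.3 only, so it still depends on reads shared with PDF1.2B and PDF1.2C. PDF1.2A and PDF1.3 together had 15 and 11 reads in WT, 292 and 177 in the PBL19C3A line and 29600 and 5829 in the sid2 line. Their sum rose by 4.22 ± 0.93 in the PBL19C3A line (adjusted p = 0.0141) and was 5.99 ± 0.77 higher in the sid2 than in the PBL19C3A line (adjusted p = 0.0203). PDF1.2A, PDF1.2B, PDF1.2C and PDF1.3 together had 17 and 20 reads in WT and 40481 and 7269 in the sid2 line, a rise of 10.11 ± 1.08 (adjusted p = 0.00379), which was 8.5 without sid2 library 1 and 10.85 without sid2 library 2. The summed rise in the PBL19C3A line did not pass without either WT library or without library 1 of the line (4.02 to 4.44), and the summed difference between the lines did not pass without either PBL19C3A library (4.48 to 6.70 over the libraries left out). The lowest and highest of these were without sid2 library 1 and without sid2 library 2, and both passed.

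HEL, whose product PR4 is a chitin-binding hevein-like protein, was the most abundant of the 9 genes in WT, at 24.3 and 34.0 FPKM. It was 36.2 and 28.5 FPKM in the eds1 line, 265 and 207 in the PBL19C3A line and 407 and 408 in the sid2 line. The eds1 and WT libraries overlapped, and the other genotypes did not. HEL rose by 2.97 ± 0.20 in the PBL19C3A line (adjusted p = 0.000127) and by 3.74 ± 0.21 in the sid2 line (adjusted p = 0.000212). In the eds1 line it stood at -2.87 ± 0.20 against the PBL19C3A line (adjusted p = 0.00018) and at -3.64 ± 0.21 against the sid2 line (adjusted p = 0.000197).

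CHI-B, the basic chitinase also called PR3, was 1.98 and 2.296 FPKM in WT and 3.33 and 2.96 in the eds1 line. It was 12.3 and 8.41 FPKM in the PBL19C3A line and 31.3 and 17.8 in the sid2 line. The 4 genotypes did not overlap, but the difference between the eds1 line and WT, 0.52 ± 0.31, did not pass. CHI-B rose by 2.23 ± 0.31 in the PBL19C3A line (adjusted p = 0.00173) and by 3.46 ± 0.32 in the sid2 line (adjusted p = 0.000805). In the eds1 line it stood at -1.71 ± 0.30 against the PBL19C3A line (adjusted p = 0.00587) and at -2.94 ± 0.31 against the sid2 line (adjusted p = 0.00187).

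**Figure D3:**
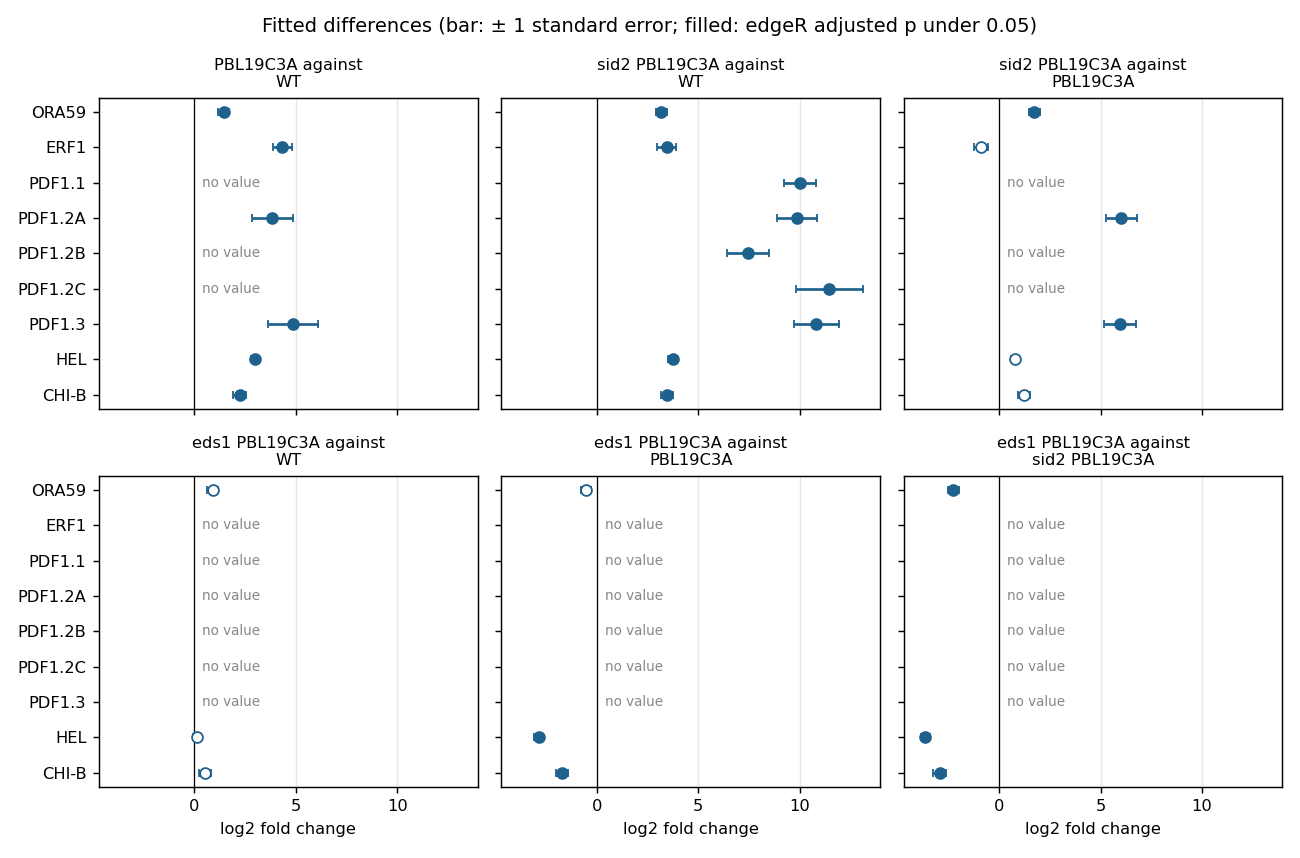
Log2 fold change with its standard error (x axis) for each of the 9 genes in each of the 6 comparisons, from edgeR on counts. Filled points passed an adjusted p of 0.05, among them all points of the PBL19C3A and sid2 lines against WT, and ORA59, PDF1.2A and PDF1.3 for the sid2 against the PBL19C3A line.

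The PBL19C3A line against WT sets the pbl19 mutant with the construct beside plants that have neither the mutation nor the construct. The activators, PDF1.2A, PDF1.3, HEL and CHI-B were higher, by 1.44 for ORA59 to 4.88 for PDF1.3. All 6 genes with values rose, where 21.3% of all 18048 genes tested rose and 36.2% passed in either direction. ORA59, HEL and CHI-B do not owe their listing to the line, whereas PDF1.2A, PDF1.3 and ERF1 could be listed only where it was higher. Without any 1 of the 4 WT and PBL19C3A libraries, PDF1.2A (3.64 to 4.07, adjusted p of 0.0610 to 0.124) and PDF1.3 (4.70 to 5.08, adjusted p of 0.0558 to 0.114) no longer passed. The rosette markers moved with this comparison: 4 of 4 were lower in the PBL19C3A line, and their part in the result was not tested.

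The sid2 line against WT gave values for all 9 genes, and all 9 rose, from 3.18 for ORA59 upward, against 12.1% of 17991 genes that rose. The defensins and ERF1 could be listed here only where the sid2 line was higher, so their direction was fixed by the listing. Only ORA59, HEL and CHI-B could have gone either way, and the count of 9 is no support of its own. With the WT reads of PDF1.1 at the floor, the median log2 fold change of the 9 was 6.42, which is no support of its own given the listing limit. Of the rosette markers, 2 of 4 were lower in the sid2 line. Without library 1 of WT, PDF1.2B (6.90, adjusted p = 0.0579) and PDF1.2C (10.53, adjusted p = 0.0664) did not pass. The sizes rested on which sid2 library was used. Without sid2 library 1 and without sid2 library 2, the log2 fold change was 8.35 and 10.57 for PDF1.2A, 9.31 and 11.54 for PDF1.3, 9.35 and 12.28 for PDF1.2C and 6.08 and 8.15 for PDF1.2B, and each passed. Without WT library 2, PDF1.2B stood at 8.45 (adjusted p = 0.0382). PDF1.2C then has 0 WT reads, and its fitted value of 15.29 (adjusted p = 0.0479) depends on the prior count.

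The sid2 line against the PBL19C3A line asks what the sid2 mutation changes when the construct is present. ORA59, PDF1.2A and PDF1.3 were higher in the sid2 line, while HEL (0.77 ± 0.19, adjusted p = 0.0859) and CHI-B (1.23 ± 0.28, adjusted p = 0.0748) did not pass, nor did ERF1. That is 3 of 6 genes, against 0.651% of 17812 genes called higher and 2.63% in either direction. ICS1 itself stood at -3.80 ± 0.24 in this comparison and PR1, the salicylate marker, at -5.20 ± 0.46. PR1 was still above WT in the sid2 line, by 5.88 ± 0.52 (adjusted p = 0.00115), at 55.5 ± 12.2 against 0.884 ± 0.330 FPKM (SD). With 42 and 24 reads, PR1 was under 1 CPM in both WT libraries, so its direction against WT was fixed by the listing. PBL19 itself stood at 1917 ± 396 FPKM in the PBL19C3A line against 791 ± 233 with sid2 (SD; adjusted p = 0.0845 for the difference), with 8.90 ± 2.13 in WT and 51.5 ± 19.2 in the eds1 line, and its part in these differences was not tested. The count fell to 0 without either PBL19C3A library and to 2 without either sid2 library. The count of all genes higher fell with it, from 116 to 3 without either PBL19C3A library, to 17 without sid2 library 1 and to 12 without sid2 library 2. Without a PBL19C3A library, PDF1.2A stood at 5.85 to 6.22 (adjusted p of 0.141 to 0.155) and PDF1.3 at 5.81 to 6.12 (adjusted p of 0.142 to 0.157). Without sid2 library 1 they stood at 4.51 and 4.44 and without sid2 library 2 at 6.73 and 6.66, and passed in both. In the full fit, DESeq2 called 5, with HEL (0.78, adjusted p = 0.00615) and CHI-B (1.23, adjusted p = 0.00202) added. ORA59 did not pass without any 1 of these 4 libraries (1.42 to 2.00, adjusted p of 0.0514 to 0.139).

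The eds1 line had values for ORA59, HEL and CHI-B only. Against WT, 0 of 3 passed in edgeR and 0 in DESeq2, with 1, ORA59, at an unadjusted p under 0.05, and 0.160% of 17534 genes passed in either direction. HEL differed by 0.11 ± 0.19 and CHI-B by 0.52 ± 0.31. Against the PBL19C3A line, HEL and CHI-B fell, 2 of 3 genes against 16.2% of all genes lower. Against the sid2 line all 3 fell, with ORA59 at -2.27 ± 0.26 (adjusted p = 0.00286), against 7.02% of all genes. PBL19 was lowest of the 3 lines in the eds1 line, as given above. These 3 counts were the same without any 1 library. The comparisons with a common line or with WT share those libraries and are not independent of each other.

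The 2 sid2 libraries stood far apart in the 4 defensins with the most reads. Library 1 was above library 2 by a ratio in FPKM of 4.70 for PDF1.2A, 4.72 for PDF1.3, 4.26 for PDF1.2B and 7.73 for PDF1.2C, but of 1.07 for PDF1.1. Among the 17201 genes of at least 1 FPKM in that line, 46 genes (0.267%) were as far apart as PDF1.2A and 13 (0.0756%) as far as PDF1.2C. The median absolute log2 ratio over these genes was 0.184. ORA59 was also higher in library 1, with a ratio of 1.501, and CHI-B, with 1.76, whereas HEL was at 0.997 and ERF1 at 0.636. In the PBL19C3A line the ratio was 1.34 for PDF1.2A and 1.28 for PDF1.3. The share of the copies moved too: PDF1.2C stood at 0.539 of PDF1.2A in FPKM in sid2 library 1 and at 0.328 in library 2, and PDF1.2B at 0.129 and 0.143.

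Some genes of jasmonate synthesis and response also differed between the sid2 libraries, in both directions. Within the sid2 line, 6 of 9 jasmonate synthesis genes were higher in library 1, as were 6 of 9 in WT and in the PBL19C3A line. The median log2 ratio was 0.68 in the sid2 line, 0.08 in WT and 0.16 in the PBL19C3A line. Over all genes of at least 1 FPKM it was 0.002, -0.007 and 0.019 in the same order. The genes furthest apart in the sid2 line had log2 ratios of 2.52 for the lipoxygenase gene LOX4, 1.59 for LOX3 and 1.403 for the allene oxide cyclase gene AOC3. Among 14 genes of jasmonate perception and the MYC2 branch, 8 were higher in library 1 of the sid2 line and 7 in that of the PBL19C3A line. Those furthest apart in the sid2 line had log2 ratios of 2.04 for VSP1, 2.00 for VSP2, 1.93 for the repressor gene JAZ5 and 1.34 for MYC2. AOS, the allene oxide synthase gene, stood at -0.16, LOX2 at -0.08, MYC4 at -0.23, JAZ7 at -0.39 and JAZ3 at -0.66, all within that central range. The eds1 libraries also differed in LOX4 (1.90), AOC3 (1.93) and MYC2 (1.05), and the WT libraries in VSP2 (1.56). The part of any of these genes in the defensin levels was not tested.

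**Figure D4:**
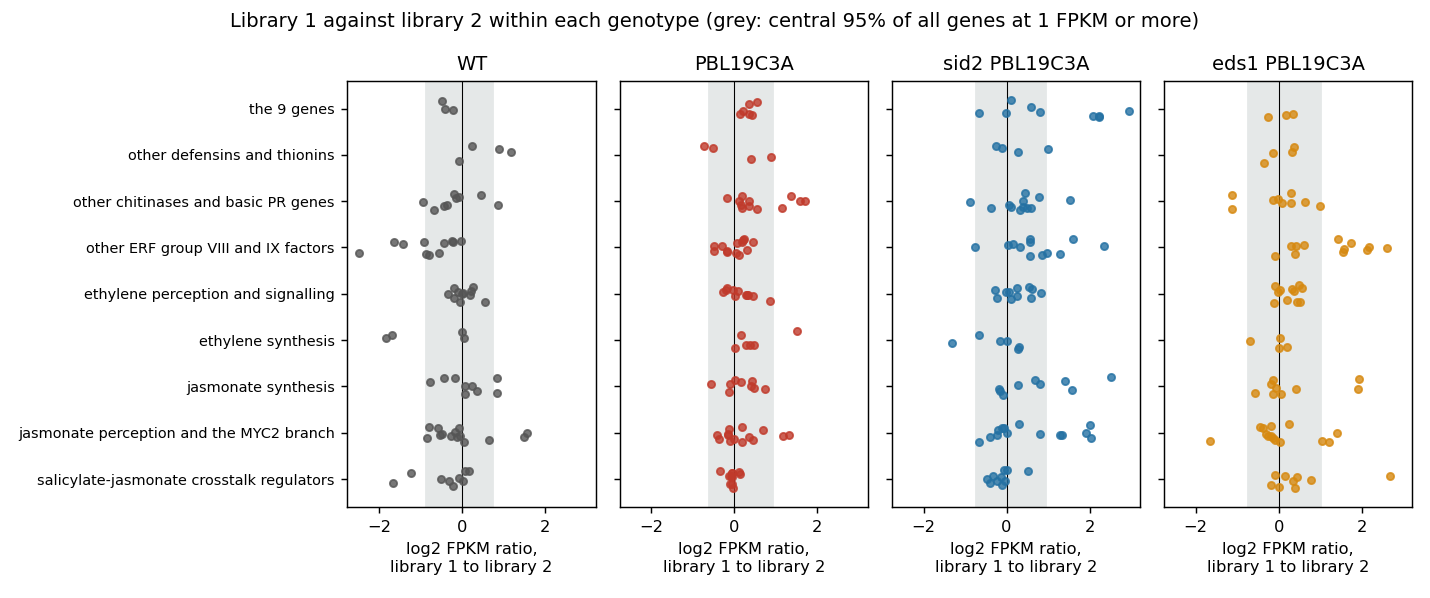
Log2 ratio of FPKM in library 1 to library 2 (x axis) within each of the 4 genotypes (panels), for genes at 1 FPKM or more of the 9 and of 8 other lists (rows), each point 1 gene, with the central 95% of all genes as a grey band. In the sid2 line 4 of the 9 genes, PDF1.2A, PDF1.2B, PDF1.2C and PDF1.3, lie to the right of the band, which runs from -0.732 to 0.946, and none of the 9 plotted for another genotype lies outside its band.

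The wider hormone pathways were read through fixed lists, with the median log2 fold change of all genes at 0.02 or nearer to 0 in each comparison. Of the ethylene perception and signalling genes, 8 of 11 rose in the PBL19C3A line and 0 fell (median log2 fold change 0.77), among them the receptor genes ERS1 (1.28 ± 0.21, adjusted p = 0.00353), ETR2 (1.27 ± 0.36, adjusted p = 0.029) and ERS2 (1.11 ± 0.22, adjusted p = 0.00762). For the sid2 line, 3 of 11 rose against WT (median 0.31), the kinase gene CTR1 (0.83) and the receptor genes EIN4 (0.46) and ETR1 (0.36). Between these lines 0 of 11 passed in edgeR, with 3 lower at an unadjusted p under 0.05 and 2 lower in DESeq2. In the eds1 line 6 of 11 were lower than in the PBL19C3A line.

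Of 6 ethylene synthesis genes with values (median 0.73 in the PBL19C3A and 0.82 in the sid2 line against WT), ACS2 and ACS7, which encode synthases of the ethylene precursor, rose in both lines. From 0 and 4 reads in WT, ACS2 rose by 7.88 ± 0.92 in the PBL19C3A line and by 8.08 in the sid2 line, and ACS7 by 5.06 ± 0.35 and 4.84. ACS7 had 9 and 17 reads in WT. Since ACS2 and ACS7 were under 1 CPM in both WT libraries, they could be listed only where a line was higher. Their direction against WT was thus fixed by the listing. The level of ACS2 was 5.65 ± 3.85 FPKM in the PBL19C3A line against 6.45 ± 2.05 with sid2 (SD). Between the lines 0 of 6 passed in edgeR, 0 at an unadjusted p under 0.05 and 0 in DESeq2, with ACS2 at 0.20 ± 0.53 and ACS7 at -0.21 ± 0.26.

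Jasmonate genes passed the test in both directions. Of all genes, 36.2% passed in either direction in the PBL19C3A line against WT. Of 9 synthesis genes (median 0.31), LOX2 rose (1.57 ± 0.30) and AOS fell (-1.80 ± 0.11) in the PBL19C3A line, and the same genes passed in the sid2 line, at 1.19 and -0.55. AOS was 1.25 ± 0.11 higher in the sid2 than in the PBL19C3A line (adjusted p = 0.00494). Of 14 genes of jasmonate perception and the MYC2 branch (median -0.02), JAZ1 (2.33 ± 0.64) and MYC3 (0.45 ± 0.12) rose in the PBL19C3A line, and MYC4 (-0.61 ± 0.16) and JAZ9 (-0.34 ± 0.11) fell. VSP2, the marker of that branch, differed by -1.91 ± 0.70 without passing (adjusted p = 0.068). Between the sid2 and PBL19C3A lines 0 of 14 passed in edgeR, 2 were higher at an unadjusted p under 0.05, and 0 passed in DESeq2. Against the PBL19C3A line, 5 of 14 were higher in the eds1 line and 1 was lower, with VSP2 at 3.14, MYC2 at 1.58 and JAZ3 at 0.84. Of all 17358 genes tested there, 2086 were higher and 2808 lower.

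Other ERF factors, taken from groups VIII and IX together, passed the test in few cases, where 21.3% of all genes rose in the PBL19C3A line. Of 14 with values (median 0.86), ERF1A (2.34 ± 0.22, adjusted p = 0.000403) and ERF2 (1.95 ± 0.32, adjusted p = 0.00379) rose in the PBL19C3A line, and the same genes rose in the sid2 line (2.05 and 1.38). Between the lines 0 of 13 passed in edgeR, 0 at an unadjusted p under 0.05 and 0 in DESeq2. ERF1A and ERF2 were lower in the eds1 line than in the PBL19C3A line, at -1.83 and -1.09.

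Among regulators of salicylate-jasmonate crosstalk, 9 of 11 rose in the PBL19C3A line (median 1.81) and 7 of 10 in the sid2 line (median 0.90). The shares of all genes that rose were 21.3% and 12.1%. GRX480, and WRKY51 with 0 and 7 reads in WT, were under 1 CPM in both WT libraries. They could be listed only where a line was higher, so their direction in these counts was fixed by the listing. GRX480 had 0 reads in both WT libraries and 416 and 344 in the PBL19C3A line (adjusted p = 0.000286 in the edgeR fit). That is at least 281-fold higher against a floor of 3 counts over both WT libraries. GRX480 was not listed for the sid2 and eds1 lines. In the PBL19C3A line NPR1, the salicylate receptor, rose by 1.81 ± 0.16 and the repressor gene WRKY70 by 4.11 ± 0.51. Between these lines 1 of 10, WRKY51, was lower in the sid2 line (-3.27 ± 0.36, adjusted p = 0.0138), and NPR1 differed by -0.76 ± 0.16 without passing (adjusted p = 0.056). DESeq2 called 4 lower. Of all 17812 genes tested there, edgeR called 353 lower and 116 higher. GRX480 is not among these 10 regulators. With 0 WT reads, it could be listed for the sid2 line only at 1 CPM or more in both sid2 libraries. In the eds1 line 6 of 9 regulators were lower than in the PBL19C3A line, with WRKY70 at -3.70, WRKY50 at -3.29 and NPR1 at -1.62. Of all genes, 16.2% were lower there.

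Among other chitinase and basic PR genes, 8 of 12 rose and 2 fell in the PBL19C3A line (median 2.38), with the glucanase gene BG3 at 7.09 ± 0.60, the chitinase gene CHI at 6.88 ± 0.42 and the osmotin-like gene OSM34 at 5.25 ± 0.59, and with CTL1 (-0.72 ± 0.12) and CTL2 (-1.33 ± 0.24) lower. Against WT, 9 rose and 1 fell in the sid2 line. WT reads were 5 and 16 for BG3, 8 and 25 for CHIA and 31 and 32 for AT1G02360. These genes were under 1 CPM in both WT libraries, so their direction against WT was fixed by the listing. Between the lines 2 of 12 were lower in the sid2 line, BG3 (-4.36 ± 0.48, adjusted p = 0.0144) and AT1G02360 (-1.22 ± 0.21, adjusted p = 0.0394), and 0 were higher. DESeq2 called 3 higher and 4 lower, and 5 higher and 4 lower had an unadjusted p under 0.05 in edgeR. Of all 17812 genes tested between the lines, edgeR called 116 higher and 353 lower in the sid2 line. Of 12 other defensins and thionins, 4 had values. Against WT, PDF1.4 rose by 3.18 ± 0.43 in the PBL19C3A line and by 3.598 with sid2, while the thionin gene THI2.2 fell by 2.46 and 0.99. THI2.2 was the 1 gene of this list that differed between the lines, at 1.46 ± 0.21 higher in the sid2 line (adjusted p = 0.0203).

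**Figure D5:**
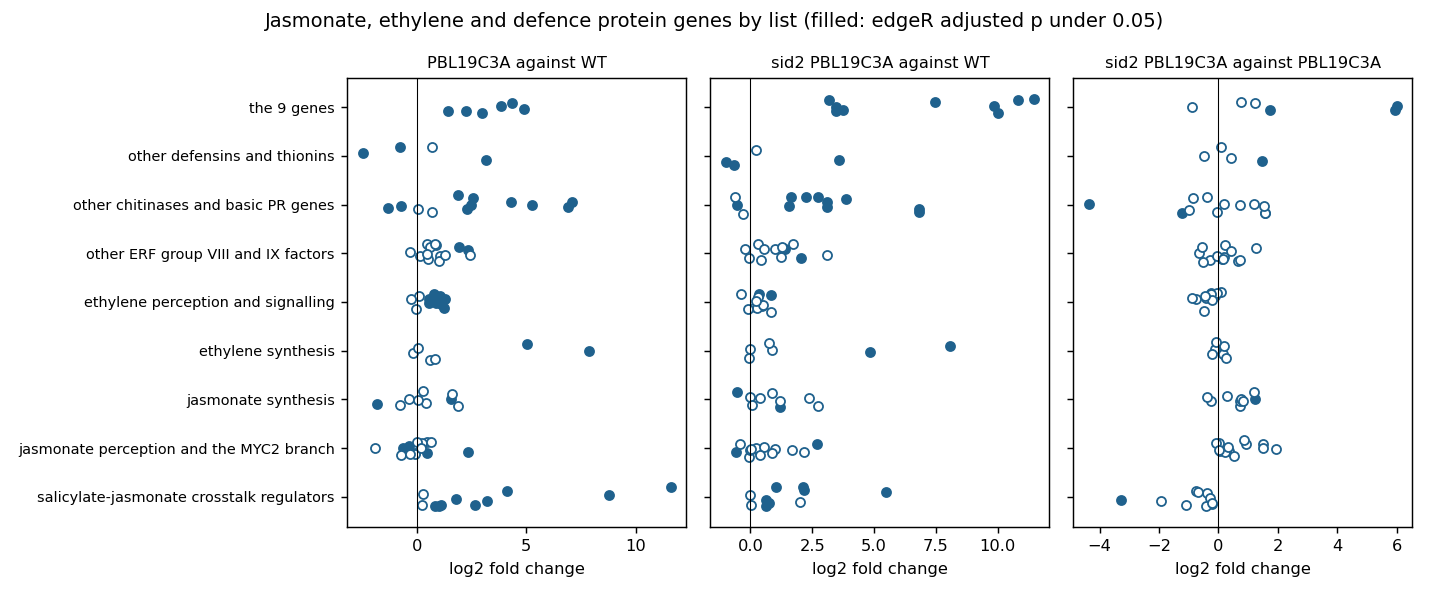
Log2 fold change (x axis) of each gene with a value in each list (rows), in 3 comparisons (panels), each point 1 gene and filled where edgeR's adjusted p was under 0.05. PDF1.1 and GRX480 had 0 reads in WT, so their points against WT are fitted values that depend on the prior count. Genes of the chitinase, ethylene signalling and crosstalk lists lie mostly above 0 in the PBL19C3A line against WT, and those of the jasmonate lists lie on both sides of 0.

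For the eds1 line against WT, 0 genes of these lists passed in edgeR. At an unadjusted p under 0.05, 5 other ERF genes and 5 genes of jasmonate perception and the MYC2 branch were higher and 1 other defensin or thionin was lower, and DESeq2 called 1 ERF gene higher and 1 defensin or thionin lower.

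The genes most like PDF1.2A over the 6 libraries of WT, the PBL19C3A line and the sid2 line, by Pearson correlation of log2(CPM + 0.5) among 13732 genes of at least 5 FPKM in 1 genotype, were AT1G06200 (r = 0.9986), AAE16 (0.9927), PLA-Iγ1 (0.9898), SERAT2;1 (0.9882) and DHDPS2 (0.9868). They span far smaller ranges, with AT1G06200 at means of 36.8, 38.4 and 42.3 FPKM in WT, the PBL19C3A line and the sid2 line. Those most like ERF1 were NHL8 (0.9992), UTR3 (0.9983), AT2G17110 (0.998), NAC061 (0.9974) and LAZ1 (0.997). UTR3 stood at 7.38, 24.7 and 17.7 FPKM in the same order. Each correlation rests on 6 libraries of 3 genotypes and is a description of their order.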

How the data were processed

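Counts of reads per gene and library, and FPKM values, were deposited by the authors, per the file headers. The submitters' processing notes name HISAT2 2.0.4 and TAIR10, and the counting tool and strandedness are not given in the sources used here. There were 3 count tables (WT beside 1 line) and 4 tables of FPKM for 1 genotype each, joined by locus identifier, with 18048, 17991 and 17534 genes listed for the PBL19C3A, sid2 and eds1 lines. Libraries held 37373977 to 51202472 counts, and a floor of 3 counts covers counting error only.

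Counts were tested with edgeR 4.0.16 (quasi-likelihood, TMM, filterByExpr, Benjamini-Hochberg over all genes of a comparison, threshold 0.05), with genotype as the only term over all 8 libraries. A gene absent from a table was fitted with the libraries that list it. The test was first checked on simulated counts. DESeq2 1.42.0, limma 3.58.1 on FPKM, other scalings and filters, and each library left out were alternatives. The genes and lists were chosen with earlier results of these data known. Named genes are the 9, up to 3 per list with the largest change past the threshold, and the 5 most like PDF1.2A and ERF1. Other names (NPR1, jasmonate and ERF genes given with library ratios, JAZ9, CHIA, CTL1, CTL2, VSP2, and named genes quoted in a further comparison) were chosen after their values were seen. Sequences were read by locus identifier from the RefSeq TAIR10.1 assembly, whose nuclear chromosomes have the lengths of TAIR10, and the deposited tables hold no coordinates.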

Additional observations from a re-analysis of the deposited data

How the results depend on the processing

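Over settings other than leaving out a library, 263 of 266 fold changes of the 9 genes kept their direction and side of the threshold. The 3 exceptions were in the sid2 against the PBL19C3A line, where HEL (0.78) and CHI-B (1.23) passed in DESeq2, and CHI-B passed with the replicate block (1.21, adjusted p = 0.0393). The count of genes higher there was 5 in DESeq2 in place of 3. For the fits without 1 library, each of the 8 libraries was left out in turn, also those of genotypes outside the comparison. All changes came from leaving out a library of a compared genotype, so the total counted below includes fits that could change little. Without 1 library at a time, 220 of 240 fold changes were the same, 18 lost their call and 2 reversed. The count higher ran from 4 to 6 in the PBL19C3A line against WT, from 7 to 9 in the sid2 line and from 0 to 3 between these lines. The summed defensins ran from 4.02 to 4.44, 8.5 to 10.85 and 4.48 to 6.70 in the same order. The first and last of these sums held PDF1.2A and PDF1.3 only. HEL in the eds1 line against WT ran from -0.113 to 0.3731, reversed to -0.113 without WT library 1 and to -0.0443 without eds1 library 1. The cause was not tested. The summed defensins were not run with limma.

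Counts over all genes moved by more than 1.5 times as follows, first by setting and then by library. In the PBL19C3A line against WT, the 2681 genes lower became 4141 with upper-quartile factors, and the share of calls that were higher went from 59.0% to 42.1%. That scaling shifted the median of all genes by -0.14 there and by 0.16 in the eds1 against the PBL19C3A line, where 2086 higher became 3554 and the share of higher calls went from 42.6% to 62.7%. In the sid2 line against WT, 729 lower became 1324 with upper-quartile factors (share of higher calls 74.9% to 58.3%), 1259 with DESeq2 and 1317 with the block. In the eds1 line against WT, 6 higher became 10 with upper-quartile factors and 47 with DESeq2, and 22 lower became 45 with DESeq2 and 12 with only the groups compared. DESeq2 thereby moved the share of higher calls from 21.4% to 51.1%. Between the sid2 and PBL19C3A lines, 116 higher became 527 with DESeq2, 305 with the block and 67 with only the groups compared, and 353 lower became 850 and 612. The share of higher calls went from 24.7% to 35.0% with upper-quartile factors and 38.3% with DESeq2. Between the eds1 and sid2 lines, 415 higher became 673 with upper-quartile factors (share 25.4% to 40.7%), 851 with DESeq2, 845 with the block and 129 with only the groups compared, where 1221 lower became 719. Without 1 library at a time, the counts higher and lower ran from 2549 to 3704 (3852 in full) and 1161 to 2600 (2681) in the PBL19C3A line against WT, 1045 to 2182 (2175) and 114 to 663 (729) in the sid2 line against WT, and 4 to 13 (6) and 15 to 20 (22) in the eds1 line against WT. They ran from 3 to 103 (116) and 20 to 287 (353) between the sid2 and PBL19C3A lines, 807 to 1911 (2086) and 1616 to 2632 (2808) between the eds1 and PBL19C3A lines, and 62 to 362 (415) and 540 to 1129 (1221) between the eds1 and sid2 lines.

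The labels do not say that a library number marks a shared batch, and each comparison has 2 pairs, so the numbers were not taken as a pairing. Same-numbered libraries deviated together, with correlations of 0.151 to 0.361 between genotypes over 17256 genes, a hint from the data and not the design. With the replicate block, 4 of 6 genes in place of 3 were higher in the sid2 than in the PBL19C3A line. With 2 libraries a genotype the spread is poorly known, WT defensin reads were few, and genes absent from a table have no value.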

Other observations

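Other ERF factors differed between the libraries of a genotype in opposite directions. In the eds1 line 11 of 12 with at least 1 FPKM were higher in library 1, with a median log2 ratio of 1.49, and in WT 0 of 11 were, with a median of -0.80. The sid2 line had 11 of 12 higher in library 1, with a median of 0.56. Over all genes of at least 1 FPKM the median was 0.047 in the eds1 line, -0.007 in WT and 0.002 in the sid2 line. ERF11 (2.62), ERF15 (2.18) and ERF5 (2.12) stood furthest apart in the eds1 line. ERF5 accordingly had a wide spread there, at 12.5 ± 11.1 FPKM (SD, n = 2) against 2.95 ± 1.298 in WT.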
